A study of Homo sapiens with 6 samples.

Results

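Ornithine decarboxylase, its antizymes and the enzymes of polyamine metabolism were followed in sorted fractions of a colorectal cancer line that carries a reporter built on the ornithine decarboxylase degron. The 10 genes were taken by symbol from the 26255 gene symbols of the deposited tables. They are ODC1, the antizymes OAZ1 and OAZ2, the antizyme inhibitor AZIN1, the enzymes AMD1, SRM, SMS, SAT1 and SMOX, and the arginase ARG2. The rule is a list of symbols and uses no measured value, though it was drawn up with earlier results of these data known. All 10 passed the filter on low values described with the first test.

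HCT116 is an established human colorectal carcinoma line of epithelial origin. The series title says that the cells were transduced with a degron of ornithine decarboxylase, and the labels name the fluorescent protein ZsGreen. Messenger RNA was sequenced from 3 libraries described as negative for ZsGreen fluorescence and 3 described as positive, with no treatment, time or clone given for either group. The labels do not say whether replicates were grown separately, so a p-value here measures the spread among these libraries alone, which may be technical. Titles of the groups follow different naming schemes, and the groups cannot be told apart from any batch that follows these names. In bulk RNA, fewer cells that carry a transcript and less of that transcript per cell cannot be told apart either. No row for the reporter was analysed here.

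Polyamines (putrescine, spermidine and spermine) are small positively charged molecules that bind nucleic acids and are needed for growth, and intestinal epithelium and colorectal tumours are known for high polyamine synthesis. Arginase supplies ornithine, ornithine decarboxylase makes putrescine from it, and spermidine synthase and spermine synthase add aminopropyl groups that AMD1 provides from S-adenosylmethionine. SAT1 and SMOX run the pathway backwards. Polyamines raise the synthesis of antizyme, which binds ornithine decarboxylase and delivers it to the proteasome without ubiquitin, and antizyme inhibitor captures antizyme in turn.

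Values are FPKM, the fragments of a gene divided by its length in kilobases and by a library size in units of 1000000. Levels of different genes are thus compared per length. Estimated from the step of low values, this library size was 9260000 to 9730000 fragments in the ZsGreen-negative and 12300000 to 13700000 in the ZsGreen-positive libraries. It includes any scaling between libraries, so it can differ from sequencing depth, as can fragment numbers derived from it. Genes listed at 0 numbered 8985 to 9162 and 10314 to 11989, with the highest counts in ZsGreen-positive replicates 2 and 3. All 6 epithelial markers were detected (EPCAM, CDH1, KRT8, KRT18, KRT19 and CLDN4), with summed FPKM of 4620 to 4690 in ZsGreen-negative and 3220 to 3680 in ZsGreen-positive libraries. They went different ways: EPCAM was called higher (log2 fold change 0.18), KRT19 did not pass (0.0074), and KRT8 (-0.40), KRT18 (-0.66), CDH1 (-1.47) and CLDN4 (-2.03) were called lower. None of the 4 leukocyte or 3 endothelial markers reached a mean of 1 FPKM. Summed within each set, FPKM was at most 0.191 for the leukocyte and 0.171 for the endothelial markers in any library. The leukocyte gene CD3E was at 0 throughout. Of 4 fibroblast markers, COL1A2 and DCN were at 0 in every library and COL1A1 was at 2.02 to 2.23 and 0.588 to 1.12 FPKM. The part of these marker differences, of depth and of the genes at 0 in the results was not tested.

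In the deposited values ODC1 message was at the same level in both groups to within the spread of the libraries, while the genes around it moved in both directions. Transcripts of ARG2, AZIN1, SMOX, SAT1 and AMD1 were lower in ZsGreen-positive cells, ARG2 by 6.11-fold and the others by 1.46-fold to 1.93-fold in mean FPKM. SRM was 2.38-fold higher, and SMS 1.16-fold higher. Of the 10 genes, 5 fell, 2 rose and 3 (ODC1, OAZ1 and OAZ2) did not pass an adjusted p of 0.05 with limma, a linear model fitted on log2(FPKM + 1) to the 12213 genes whose mean reached 1 FPKM. Over all of these genes 30.0% were called lower, 29.4% higher and 59.4% in either direction, so that 7 calls among 10 genes are near the background. No overlap between the groups was seen for 8 of the 10 genes and for 67.6% of all tested genes. The median log2 fold change (positive minus negative) was -0.26 over the 10 genes and 0.0040 over all tested genes. The 5 lower genes were called under all 16 alternative settings, as was SRM, but the call of SMS was lost under 6 of them. ODC1 stayed uncalled under 15 of the 16 and was called lower under quantile normalisation, so its result depends on the scaling between libraries.

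**Figure D1:**
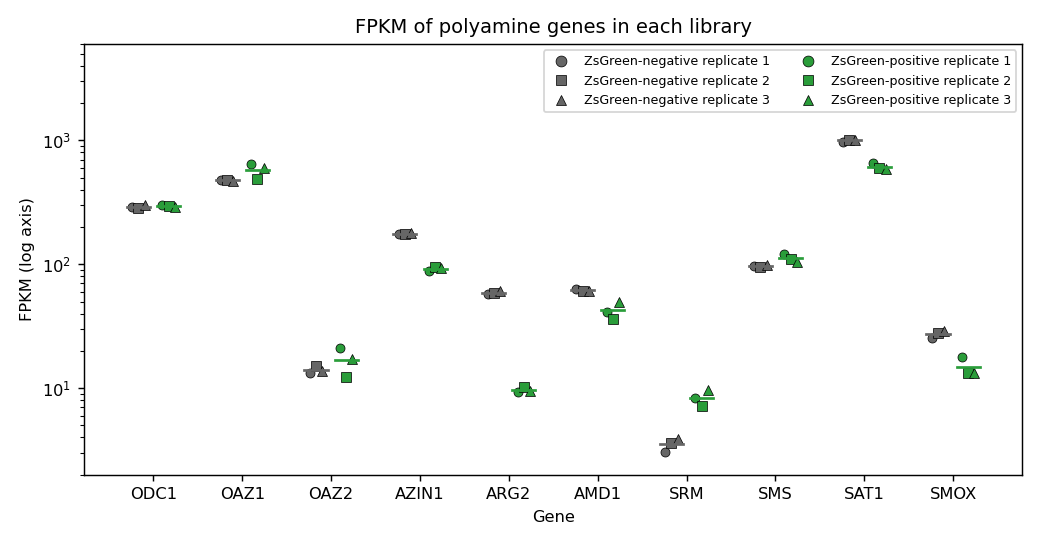
FPKM of the 10 genes on a log axis in each of the 6 libraries, grey for ZsGreen-negative and green for ZsGreen-positive, with a symbol per replicate and a line at each group mean. ODC1 lies near 290.9 FPKM in both groups, and ARG2 shows the widest gap, at 57.6 to 61.1 against 9.40 to 10.2 FPKM.

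ODC1 encodes ornithine decarboxylase, the first and most tightly regulated enzyme of the pathway, whose carboxyl end is the degron used in the reporter. In the GENCODE 29 annotation the human coding sequence has 461 codons, and codons 425 to 461 lie in the last of 12 exons, at chr2:10440727-10440837 on the minus strand of GRCh38. These 37 codons are shown because they encode the region known as the degron. Capitals mark the codon, number 441, of a cysteine known to be needed for degradation. The sequence of the reporter construct was not analysed here.

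ODC1 codons 425 to 461: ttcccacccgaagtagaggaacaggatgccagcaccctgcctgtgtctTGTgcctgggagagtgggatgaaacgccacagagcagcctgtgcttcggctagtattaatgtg

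ODC1 was at 289, 283 and 301 FPKM in ZsGreen-negative replicates 1 to 3 and at 299, 296 and 293 FPKM in ZsGreen-positive replicates 1 to 3. All 3 positive values lie inside the range of the negative ones, and ODC1 was more even in the positive group (SD 3.16 against 9.64 FPKM). The means were 290.9 ± 9.64 and 296 ± 3.16 FPKM (SD, n = 3 each). The log2 fold change was 0.02 ± 0.0513 (SE; adjusted p = 0.704, limma), with a 95% interval of -0.10 to 0.14. Its level was above that of 97.3% of tested genes. Its log2 fold change, ranked with its sign, was above that of 51.0% of them, near the middle. The value of ODC1 depended on the scaling. When every library was rescaled to a sum of 1000000, the median of all tested genes moved to 0.14 and ODC1 moved with it to 0.20 (adjusted p = 0.051, limma). Quantile normalisation, which forces the libraries to a single distribution, gave ODC1 a log2 fold change of -0.36 (adjusted p = 0.00104, limma). Over the 16 alternatives the adjusted p ran from 0.00104 to 0.973, and no other alternative put ODC1 past the threshold.

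By Euclidean distance in log2(FPKM + 1) over the 6 libraries, the 5 tested genes most like ODC1 were H3F3AP4, PPA1, COX7A2, P4HB and CYB5B, with distances of 0.193, 0.303, 0.344, 0.387 and 0.391. All 5 lay between 251 and 352 FPKM in every library. H3F3AP4, annotated as a pseudogene of a histone gene, was closest, at 281 to 292 FPKM in ZsGreen-negative and 284 to 337 FPKM in ZsGreen-positive libraries. P4HB and CYB5B were called higher, with log2 fold changes of 0.32 and 0.31, and the other 3 were not called.

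The antizymes OAZ1 and OAZ2 bind ornithine decarboxylase and send it to the proteasome. Their messages carry an early stop codon, and ribosomes reach the full protein by shifting the reading frame at that stop, more often when polyamines are abundant. The frameshift sites of both genes are shown because this step sets antizyme output after the message is made, where FPKM cannot follow it. In the GENCODE 29 model, 68 codons precede the stop in OAZ1 and 32 in OAZ2, and the coding models leave out 1 base at this point. The sites lie in exons at chr19:2271413-2271473 on the plus strand and chr15:64691485-64691545 on the minus strand of GRCh38. Of the 61 bases 49 are identical (80.3%), among them an unbroken run of 27 around the stop. Capitals mark the stop codon of the first frame.
OAZ1: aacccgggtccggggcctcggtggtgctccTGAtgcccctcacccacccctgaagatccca
OAZ2: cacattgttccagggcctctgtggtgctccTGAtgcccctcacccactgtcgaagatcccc

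OAZ1 was at 475, 480.0 and 472 FPKM in ZsGreen-negative replicates and at 645, 489 and 594 FPKM in ZsGreen-positive replicates. Each positive value is above each negative one, but replicate 2 exceeds the highest negative library by little. The means were 476 ± 3.94 and 576 ± 79.4 FPKM, and the log2 fold change of 0.27 ± 0.1 missed the threshold (adjusted p = 0.053, limma; 95% interval 0.03 to 0.50). Without ZsGreen-positive replicate 2 it was 0.38 and passed (adjusted p = 0.00164, limma). Rescaling to a sum of 1000000 gave 0.44 (adjusted p = 0.000413), and quantile normalisation turned the direction (-0.11, adjusted p = 0.141). Over the 16 alternatives 5 put OAZ1 past the threshold as higher.

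OAZ2, the less abundant antizyme, was at 13.3, 15.1 and 13.7 FPKM in ZsGreen-negative replicates and at 21.0, 12.4 and 17.2 FPKM in ZsGreen-positive replicates. The groups overlap, since positive replicate 2 is the lowest of all 6 libraries. The log2 fold change was 0.22 ± 0.173 (adjusted p = 0.302, limma; 95% interval -0.18 to 0.63). Without ZsGreen-positive replicate 2 it was 0.41 (adjusted p = 0.0181, limma), and without ZsGreen-positive replicate 1 it was 0.057 (adjusted p = 0.75, limma). Rescaling to a sum of 1000000 gave 0.37 (adjusted p = 0.0381, limma), so the call of OAZ2 depends on the library left out and on the scaling. OAZ2 made up 0.0280 to 0.0315 of the OAZ1 level in negative and 0.0254 to 0.0325 in positive libraries, and the ratio did not separate the groups (exact permutation test, two-sided, p = 0.9). Of the rest of the family, OAZ3, a testis antizyme, and AZIN2, a second antizyme inhibitor, did not pass. OAZ3 was at 2.01 to 2.48 against 1.39 to 4.67 FPKM, and AZIN2 at 2.62 to 2.77 against 0.894 to 2.66 FPKM.

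AZIN1 encodes antizyme inhibitor 1, a relative of ornithine decarboxylase without enzyme activity that binds antizyme more tightly than the enzyme does. It was at 175.0, 176 and 179 FPKM in ZsGreen-negative replicates and at 87.5, 94.3 and 92.9 FPKM in ZsGreen-positive replicates. The groups are far apart and each is tight, with coefficients of variation of 1.20% and 3.92%. AZIN1 fell from 177 ± 2.13 to 91.6 ± 3.59 FPKM, a log2 fold change of -0.94 ± 0.0539 (adjusted p = 9.14e-06, limma), and only 9.56% of tested genes had a lower value. The antisense gene AZIN1-AS1, which overlaps an exon of AZIN1, was at 0.469 to 0.614 and 0 to 1.03 FPKM. Whether counting used strand is not given in the sources used here.

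Ratios within a library do not depend on the scaling between libraries. Of 6 ratios computed, 3 differed without overlap between the groups. With 3 libraries against 3 an exact permutation test cannot go below p = 0.1, so none could pass, and after adjustment over the 6 ratios those 3 had p = 0.2 (exact permutation tests, two-sided). AZIN1 over the sum of OAZ1 and OAZ2 was 0.358, 0.356 and 0.369 in ZsGreen-negative and 0.131, 0.188 and 0.152 in ZsGreen-positive libraries. This ratio of inhibitor message to antizyme message was 2.32-fold lower in the positive group, at 0.361 ± 0.00672 against 0.157 ± 0.0287 (SD, n = 3 each; exact permutation p = 0.1). ODC1 over OAZ1 was 0.608, 0.589 and 0.638 against 0.463, 0.605 and 0.493. Here ZsGreen-positive replicate 2 lies among the negative libraries, and the groups overlap (exact permutation p = 0.2, adjusted 0.24).

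ARG2 encodes the mitochondrial arginase, which releases ornithine from arginine. It was at 57.6, 58.4 and 61.1 FPKM in ZsGreen-negative replicates and at 9.40, 10.2 and 9.41 FPKM in ZsGreen-positive replicates. Every positive library lies far below every negative one, and the spread within each group is small. ARG2 fell from 59.0 ± 1.81 to 9.67 ± 0.454 FPKM, a log2 fold change of -2.49 ± 0.0681 (adjusted p = 5.19e-07, limma). Of all tested genes, 53 (0.434%) had a lower log2 fold change, 1.05% were called lower with a log2 fold change of -2 or less, and 8.34% with one of -1 or less, which among the 10 genes ARG2 alone reached. VTI1B, a gene on the opposite strand that overlaps an ARG2 exon, moved the other way, from 31.6 ± 0.923 to 39.2 ± 2.12 FPKM.

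The promoter of ARG2 is shown because no other of the 10 genes changed as much. In the 250 bases before the annotated start, the palindrome of the cyclic AMP response element, TGACGTCA, which reads the same on both strands, occurs at 172 and 64 bases upstream. It is found in 1.65% of 35116 promoter windows of that length in RefSeq (GRCh38.p14) and in no other of the 11 windows of 8 of the 10 genes. AZIN1 and SMOX had no window. A match describes letters and says nothing of binding. Capitals mark the matches in chr14:67619735-67619874, plus strand.
ARG2 promoter: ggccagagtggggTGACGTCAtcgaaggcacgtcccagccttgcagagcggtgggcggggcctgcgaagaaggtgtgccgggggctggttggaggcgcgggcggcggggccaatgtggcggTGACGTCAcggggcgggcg

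Of 13 other genes of arginine and ornithine supply 9 were tested, of which 7 rose, 1 fell and 1 did not pass, with a median log2 fold change of 0.86. Over all tested genes 29.4% were called higher and 30.0% lower. PYCRL, which reduces pyrroline-5-carboxylate to proline, rose from 1.97 ± 0.274 to 9.21 ± 1.10 FPKM, a log2 fold change of 1.78 ± 0.133 (limma, adjusted p = 3.05e-05). ASL, which splits argininosuccinate into arginine and fumarate, rose from 14.9 ± 1.17 to 31.3 ± 2.90 FPKM. SLC25A15, the mitochondrial ornithine carrier, rose from 5.14 ± 0.360 to 12.6 ± 1.30 FPKM. ASS1, the urea cycle enzyme just before ASL, fell from 122 ± 0.704 to 41.4 ± 2.34 FPKM, a log2 fold change of -1.53 ± 0.061 (limma, adjusted p = 2.26e-06). OAT, which turns ornithine into a proline and glutamate precursor, was at 116 to 121 and 117 to 123 FPKM and did not pass (log2 fold change 0.03, 95% interval -0.10 to 0.15). The other arginase, ARG1, was at 0 to 0.149 FPKM in the negative and at 0 in all positive libraries.

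AMD1 encodes adenosylmethionine decarboxylase, which makes the aminopropyl donor for spermidine and spermine. It was at 62.8, 61.2 and 61.1 FPKM in ZsGreen-negative replicates and at 41.5, 36.4 and 49.3 FPKM in ZsGreen-positive replicates. No positive library reaches the negative range, but the positive values spread more widely. AMD1 fell from 61.7 ± 0.946 to 42.4 ± 6.49 FPKM, a log2 fold change of -0.54 ± 0.106 (adjusted p = 0.00346, limma), and 22.1% of tested genes lay lower. AMD1 over ODC1, a comparison of the pathway's 2 decarboxylases within a library, was 0.203 to 0.217 in negative and 0.123 to 0.168 in positive libraries (two-sided exact permutation test, p = 0.1). GENCODE 29 lists processed pseudogenes named after ODC1, AMD1 and SRM, and how reads shared with such copies were assigned is not given in the sources used here.

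Around AMD1, the list of S-adenosylmethionine supply and methylthioadenosine salvage gave 5 higher, 2 lower and 1 not passing among 8 tested of 9 genes, with a median log2 fold change of 0.45 (over all tested genes, 29.4% higher and 30.0% lower). AHCY, which clears the by-product of methylation, rose from 103 ± 4.22 to 197 ± 20.2 FPKM, a log2 fold change of 0.93 ± 0.0844 (limma, adjusted p = 7.69e-05). MAT2A, the enzyme that makes S-adenosylmethionine, fell from 67.2 ± 1.94 to 43.8 ± 4.96 FPKM, together with its user AMD1. MTAP, which recycles the methylthioadenosine left by both synthases, was called higher, at 54.2 ± 1.29 against 74.0 ± 2.49 FPKM. ADI1, a late step of that salvage, fell from 68.5 ± 1.31 to 42.8 ± 3.94 FPKM. MRI1, its first step after MTAP, rose from 2.55 ± 0.372 to 4.34 ± 1.27 FPKM (adjusted p = 0.036, limma), a call lost under 7 of 15 alternatives, among them leaving out any negative replicate or positive replicate 1 or 3.

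SRM encodes spermidine synthase. It was the lowest of the 10 genes in both groups, at 3.08, 3.59 and 3.88 FPKM in ZsGreen-negative replicates and 8.37, 7.13 and 9.61 FPKM in ZsGreen-positive replicates. With the longest annotated coding transcript of 1266 nt, these values stand for about 38 to 46 and 116 to 167 estimated fragments. The groups do not overlap. This level is low for an enzyme of general growth metabolism, and whether the deposited values hold all of its transcript is not known. The rank of SRM, its ratio to SMS and the size of its rise all rest on these values. SRM rose from 3.51 ± 0.407 to 8.37 ± 1.24 FPKM, a log2 fold change of 1.05 ± 0.136 on the log2(FPKM + 1) scale, which understates the change of a gene this low (adjusted p = 0.000459, limma). Ranked with its sign, this log2 fold change was above that of 91.1% of tested genes. Upstream of SRM, the E-box CACGTG, a palindrome bound by factors of the MYC family, occurs once, at 199 bases before the start. Among the 10 genes ODC1 also has it, at 29 bases before one of its annotated starts, and 6.34% of all windows hold it. The letters around the SRM match are shown, with the match in capitals, from chr1:11060189-11060238 on the minus strand of GRCh38.p14 (RefSeq).
SRM promoter: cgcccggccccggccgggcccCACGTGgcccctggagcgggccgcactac

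SMS encodes spermine synthase, which makes spermine from spermidine. It was at 97.7, 94.6 and 97.8 FPKM in ZsGreen-negative replicates and at 121, 111 and 105 FPKM in ZsGreen-positive replicates. All positive values exceed all negative ones, the nearest being 105 against 97.8 FPKM. SMS rose from 96.7 ± 1.83 to 112 ± 8.22 FPKM, a log2 fold change of 0.21 ± 0.0669 (adjusted p = 0.0289, limma). The call was lost without any 1 of the ZsGreen-negative replicates (adjusted p = 0.0804 to 0.109, limma), although the log2 fold change stayed at 0.19 to 0.22. Over all tested genes the share called also fell there, from 59.4% to between 48.7% and 48.9%. Leaving out any 1 ZsGreen-positive replicate kept the call of SMS (adjusted p = 0.0115 to 0.0423, limma). Quantile normalisation gave a log2 fold change of 0.05 (adjusted p = 0.481, limma). SMS stood well above SRM in FPKM, by 25.2-fold to 31.8-fold in negative and 10.9-fold to 15.6-fold in positive libraries (exact permutation test of the log2 ratio, two-sided, p = 0.1).

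SAT1 encodes spermidine/spermine acetyltransferase, the limiting enzyme of polyamine breakdown and export, and had the highest mean of the 10 messages in both groups, although OAZ1 was above it in ZsGreen-positive replicate 3. It was at 971, 1010.3 and 1016 FPKM in ZsGreen-negative replicates and at 652, 595 and 589 FPKM in ZsGreen-positive replicates. The groups are clearly apart. SAT1 fell from 999 ± 24.1 to 612 ± 34.9 FPKM, a log2 fold change of -0.71 ± 0.062 (adjusted p = 6.56e-05, limma). It took 45.3% ± 0.490 of the summed FPKM of the 10 genes in negative and 34.4% ± 1.25 in positive libraries, while OAZ1 took 21.6% ± 0.397 and 32.3% ± 2.51. These shares add to a whole and so move against each other.

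SMOX encodes spermine oxidase, which turns spermine back into spermidine. It was at 25.5, 28.1 and 28.7 FPKM in ZsGreen-negative replicates and at 17.96, 13.4 and 13.2 FPKM in ZsGreen-positive replicates. No positive value reaches the negative range, and positive replicate 1 lies nearest to it. SMOX fell from 27.4 ± 1.67 to 14.8 ± 2.72 FPKM, a log2 fold change of -0.86 ± 0.125 (adjusted p = 0.000828, limma). SAT1 over SMOX was 38.0, 36.0 and 35.4 in negative and 36.3, 44.5 and 44.7 in positive libraries, and the groups overlap (exact permutation test, two-sided, p = 0.2, adjusted 0.24). Of the remaining catabolic genes, PAOX, the oxidase of acetylated polyamines, was at 0.444 to 0.910 and 0.874 to 2.69 FPKM and did not pass (adjusted p = 0.0532, limma). It passed as higher with rescaling to a sum of 1000000, under quantile normalisation, without a variance trend and without ZsGreen-positive replicate 2. PAOX entered the test only through its ZsGreen-positive values, since its negative values lie below the filter. SAT2, a relative of SAT1, was at 17.8 to 21.2 and 14.9 to 34.2 FPKM and did not pass, though it did without ZsGreen-positive replicate 1.

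**Figure D2:**
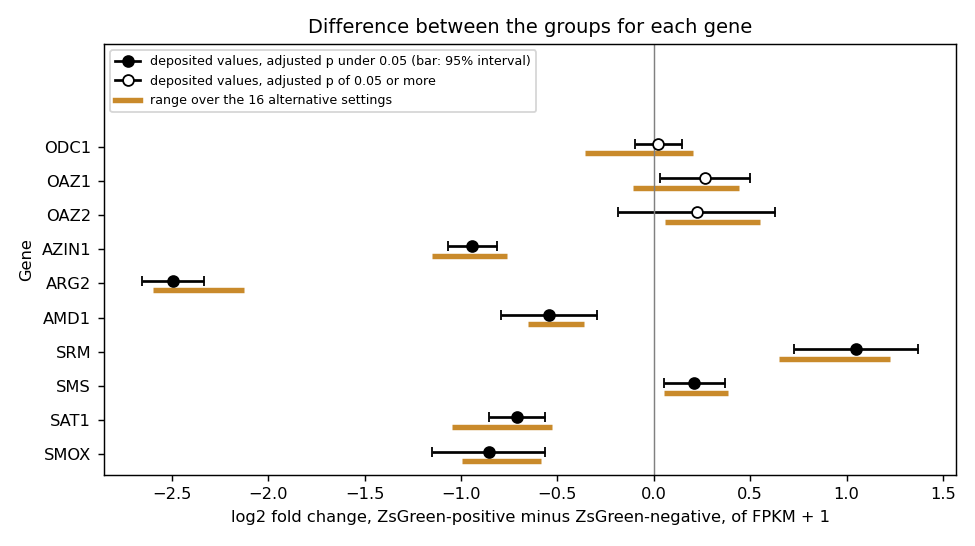
Log2 fold change of FPKM + 1 (ZsGreen-positive minus ZsGreen-negative) for each of the 10 genes, with the 95% interval of the limma fit and, in orange, the range over 16 alternative settings. The ranges of ARG2, AZIN1, AMD1, SAT1 and SMOX stay below 0, those of SRM, SMS and OAZ2 stay above 0, and those of ODC1 and OAZ1 cross it. The 95% interval of OAZ2 includes 0.

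In the order of levels, SAT1, OAZ1 and ODC1 were the 3 highest in both groups. Among ZsGreen-negative libraries all 10 genes were separated from their neighbours in the order. Among ZsGreen-positive libraries SAT1 (589 to 652 FPKM) overlapped OAZ1 (489 to 645 FPKM), OAZ2 overlapped SMOX, and ARG2 (9.40 to 10.2 FPKM) overlapped SRM (7.13 to 9.61 FPKM). SMS stood below AZIN1 in the negative and above it in the positive group. Summed over the 10 genes, FPKM was 2205 ± 32.5 in negative and 1779 ± 119 in positive libraries.

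Spermidine also has a single known use as a building block, the hypusine residue of the translation factor eIF5A. Of 5 genes of this step 4 were tested, with 2 higher, 1 lower and 1 not passing (median log2 fold change 0.30), so that the 3 calls are near the 59.4% called over all tested genes. EIF5A was at 84.6, 87.5 and 86.3 FPKM in ZsGreen-negative replicates and at 306, 245 and 275 FPKM in ZsGreen-positive replicates. The groups are far apart, with EIF5A rising from 86.1 ± 1.43 to 275 ± 30.3 FPKM, a log2 fold change of 1.66 ± 0.0835 (limma, adjusted p = 5.31e-06). Its near copy EIF5AL1, at 0.105 to 0.134 and 0.0188 to 0.0419 FPKM, could share reads with it. DHPS, which starts hypusine synthesis by taking the aminobutyl group of spermidine, rose from 29.7 ± 1.07 to 39.7 ± 4.52 FPKM, and DOHH, which completes it, did not pass (6.16 ± 0.627 against 7.34 ± 1.35 FPKM). EIF5A2, the second isoform, fell from 3.53 ± 0.325 to 2.25 ± 0.286 FPKM (adjusted p = 0.0174, limma). That call was lost with rescaling to a sum of 1000000 and without ZsGreen-negative replicate 1 or 2.

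Transporters split, with 3 higher, 3 lower and 1 not passing among 7 tested of 12 genes (median log2 fold change 0.29), against 29.4% higher and 30.0% lower over all tested genes. One of the higher calls, SLC18B1, a vesicular polyamine transporter (18.4 ± 0.532 against 22.8 ± 3.14 FPKM, adjusted p = 0.0482, limma), was lost under 10 of 16 alternatives. ATP13A2, which exports polyamines from lysosomes, rose from 3.38 ± 0.318 to 9.27 ± 0.931 FPKM, a log2 fold change of 1.23 ± 0.115 (limma, adjusted p = 9.27e-05). Its relative ATP13A3, tied to polyamine uptake, fell from 51.4 ± 0.0712 to 29.1 ± 4.41 FPKM. SLC3A2, the heavy chain of amino acid exchangers and tied to polyamine export, fell from 439 ± 4.35 to 194 ± 11.3 FPKM, a log2 fold change of -1.18 ± 0.0596 (limma, adjusted p = 5.43e-06). The arginine transporter genes went apart: SLC7A1 fell from 16.5 ± 0.669 to 9.07 ± 1.29 FPKM and SLC7A2 rose from 1.37 ± 0.0556 to 3.26 ± 0.957 FPKM.

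Among 5 tested of 6 known regulators of ODC1 message or protein, 3 fell, 0 rose and 2 did not pass, with a median log2 fold change of -0.74. Over all tested genes 30.0% were called lower and 59.4% in either direction, so that 3 calls of 5 are near the background. MYC, a transcription factor for which ODC1 is a classical target, was at 173, 170 and 157 FPKM in ZsGreen-negative replicates and at 119, 96.6 and 85.0 FPKM in ZsGreen-positive replicates. The groups do not overlap, and MYC fell with a log2 fold change of -0.74 ± 0.119 (adjusted p = 0.00131, limma). NQO1, a quinone reductase that binds ornithine decarboxylase and protects it from the proteasome, fell from 521 ± 14.1 to 152 ± 19.1 FPKM, a log2 fold change of -1.78 ± 0.0927 (limma, adjusted p = 6.08e-06). ZFP36, an RNA-binding protein that destabilises ODC1 message, fell from 23.3 ± 3.71 to 6.99 ± 0.681 FPKM. MYC's partner MAX (26.3 ± 0.0352 against 22.9 ± 3.54 FPKM) and ELAVL1, which stabilises ODC1 message (8.78 to 9.17 against 9.14 to 11.9 FPKM), did not pass, and MYCN was at 0 in every library.

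Over all lists together, 37 of 51 genes were tested, with 17 higher, 10 lower and 10 not passing and a median log2 fold change of 0.31, against 29.4% higher and 30.0% lower over all tested genes. Of the 27 called genes all kept their direction under the alternatives that tested them. The calls of 24 held under each of these, the exceptions being MRI1, EIF5A2 and SLC18B1. PRODH, counted among the 17 and the 24, passed the filter on the mean only through its ZsGreen-positive values. It was tested in 11 of the 16 alternatives.

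**Figure D3:**
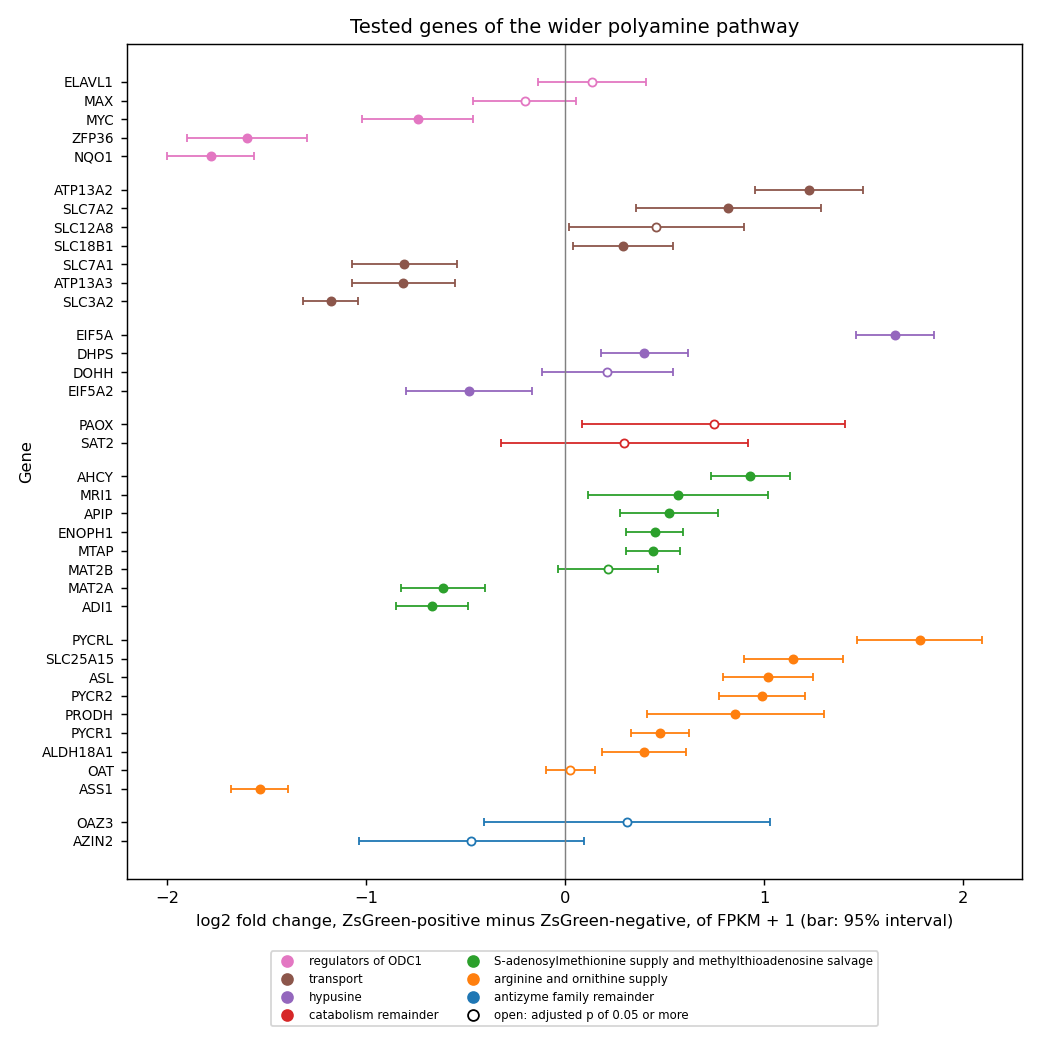
Log2 fold change of FPKM + 1 (ZsGreen-positive minus ZsGreen-negative) with its 95% interval for the 37 tested genes of the wider pathway, coloured by list, with open symbols for genes that did not pass. Supply genes lie mostly to the right apart from ASS1 at -1.53, and the regulators NQO1, ZFP36 and MYC lie to the left.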

How the data were processed

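For each library the authors deposited a table that lists FPKM by gene symbol (26255 symbols), per the file headers. Cuffdiff 2.2.1, SAMtools 0.1.18, Bowtie2 2.2.8, TopHat2 2.1.1 and the build hg19 are named in the submitters' processing notes. Their settings, the annotation, the use of strand and the scaling between libraries were not given in the sources used here. Because FPKM is relative to a library total, a change in abundant RNAs moves the values of other genes. Libraries were poly(A)-selected and stranded, per the labels' protocols.

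Differences were fitted with limma 3.58.1 in R 4.3.3 on log2(FPKM + 1) over 12213 genes with a mean of at least 1 FPKM (trend in the variance, 4 residual and 3.22 prior degrees of freedom, two-sided, Benjamini-Hochberg over all genes, threshold 0.05). The fit takes 1 variance per gene over both groups. Among the 10 genes all but ODC1 had a larger coefficient of variation in the ZsGreen-positive group (OAZ1 13.8% against 0.829%, ODC1 1.07% against 3.31%). The SE and the calls do not reflect this difference in spread. The fit was also run on simulated data in which both groups had the spread of the ZsGreen-negative libraries. That run therefore cannot show how the fit behaves at unequal spread. Ratios used exact permutation tests (Python 3.11.15, SciPy 1.17.1). All 10 genes are named, and of each wider list up to 4 called genes with the largest change, with further list members given as values and chosen after their values were seen. Genes and lists were chosen with earlier results of these data known, and the promoter motifs and overlapping genes after the values were seen. Library size was read from the commonest low product of FPKM and length. This used 2137 genes with a single transcript of at least 1000 nt in GENCODE 29. Other replicates were tied to replicate 1 by the most common ratio of low values near equality. Sequences are from GENCODE 29 and RefSeq on GRCh38, matched by gene symbol, not from hg19. Promoter windows matched 8 of 10 genes.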

Additional observations from a re-analysis of the deposited data

How the results depend on the processing

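The count of polyamine genes called higher, 2 with the deposited values, was 4 with rescaling to a sum of 1000000 and without ZsGreen-positive replicates 2 and 3, where OAZ1 and OAZ2 passed. It was 1, with SMS lost, under quantile normalisation, without a variance trend and with the replicate block. Leaving out 1 library gave 1 (each ZsGreen-negative replicate) to 4 (ZsGreen-positive replicate 2). The count called lower was 5 to 6 under all 16 alternatives. Quantile normalisation reversed ODC1 to -0.36 and OAZ1 to -0.11, and the cause was not tested. The log2 ratio of OAZ2 over OAZ1, -0.03 as a difference between groups, ran from -0.12 to 0.0591 when a library was left out and changed sign without ZsGreen-negative replicate 2 (0.0164) or ZsGreen-positive replicate 2 (0.0591). The other 5 ratios kept their direction under 9 alternatives. Rescaling raised the share of higher calls among all called genes from 49.5% to 62.1%. With the lone ZsGreen-positive replicate 1, that library was assumed to vary like the negative ones.

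The titles number the replicates of both groups, but same-numbered libraries did not deviate together (r = -0.0211, -0.0301 and -0.0209 over 12213 genes, which are not independent replicates), and no library correlated best with its own number, so they were not treated as pairs. With the replicate block the genes called were 3433 higher and 3482 lower, against 3590 and 3668, and SMS had an adjusted p of 0.0524 (limma). The differences in ratios were the same with the block (AZIN1 over the antizymes -1.22, exact sign-flip p = 0.25, the smallest possible).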

Other observations

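SNORA80B, a small nucleolar RNA gene of 136 nt within an intron of ODC1 and on its strand, was chosen after its values were seen. It was at 75.8, 76.8 and 74.7 FPKM in ZsGreen-negative and at 4784, 3109 and 3882 FPKM in ZsGreen-positive libraries, while the message of its host gene ODC1 stayed within 283 to 301 FPKM. The log2 fold change was 5.65 ± 0.142 (adjusted p = 3.94e-07, limma). FPKM of so short a gene can be over- or understated. The libraries were poly(A)-selected, and whether these values follow the level of the mature small nucleolar RNA was not tested. SNORA80B was not alone: of 361 SNORA and SNORD genes in the files 99 were tested, of which 51 rose and 19 fell, while 29 did not pass (over all tested genes, 29.4% higher and 30.0% lower). The median log2 fold change of the 99 was 2.64. High values in 1 group alone could carry a gene past the filter on the mean. Both the counts and the median are therefore over genes partly chosen by their values, and cannot show that such genes rose as a class. Of the 99, 33 had a larger log2 fold change than SNORA80B. Among all tested genes 43 did.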
